A study of Mus musculus with 4 samples.

Results

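Maturing inhibitory neurons marked by Sez6 and Igfbp5 were examined among cells sorted from the cerebellum of mouse embryos at E15.5. Members were chosen from raw counts of unique molecular identifiers (UMIs, each standing for 1 captured RNA molecule). A member had at least 3 UMIs summed over Sez6, Igfbp5, Glra2 and Grin2b and at least 1 UMI of the inhibitory genes Gad1, Gad2, Slc32a1 and Slc6a5. It had at most 1 UMI of Sst and Cartpt, at most 1 of the Purkinje cell genes Foxp2, Calb1 and Skor2, and none of Neurod1, Neurod6, Nanos1, Nhlh2 and Scx. Cells were kept at 500 detected genes or more and a mitochondrial UMI share no higher than 10%. The rule found 423 members among the 24856 kept cells, of which control replicates 1 and 2 gave 293 and 8 cells and En1/2 CKO replicates 1 and 2 gave 42 and 80.

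The study compared embryos that lack the Engrailed genes En1 and En2 in the Ptf1a lineage with embryos that keep them. All embryos carried Ptf1aCre/+ and the reporter R26LSL-tdT/+, so that cells in which Ptf1a-Cre had acted made tdTomato and could be sorted. For control embryos (2 libraries) the labels give no further allele, and En1/2 CKO embryos (2 libraries) also had En1lox/lox and En2lox/lox. Each library was a pool of embryos, the labels do not give their number, and p-values measure the spread between pools.

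GABAergic interneurons of the cerebellum descend from Ptf1a-expressing progenitors and pass through a migrating precursor stage that expresses Pax2. As they settle they take up the machinery of inhibitory transmission. Gad1 and Gad2 make GABA, Slc32a1 loads GABA or glycine into vesicles, and Slc6a5 takes glycine up into glycinergic cells. Sez6 encodes a neuronal CUB and sushi domain protein with a part in dendrite and synapse development. Igfbp5 encodes a secreted binding protein of insulin-like growth factors, Glra2 the glycine receptor subunit typical of embryonic neurons, and Grin2b an NMDA receptor subunit typical of young neurons.

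The libraries held between 5305154 and 21021428 UMIs over all barcodes, and the member cells held 409420, 16643, 72932 and 129779 UMIs in the order given above. Members had median depths of 1285, 1312, 1153 and 987 UMIs. Their median mitochondrial shares were 3.71%, 5.59%, 7.44% and 7.47%, against 3.37%, 5.63%, 3.58% and 4.49% in all inhibitory cells of the same libraries. Both mutant libraries thus lay above both controls in the members, and the part of this in the results below was not tested. On the scale of CPM (counts scaled to a common total of member UMIs in each library), 3 UMIs correspond to 7.33, 180, 41.1 and 23.1 CPM, so that control replicate 2 resolves little. Of the members, 3 shared their barcode sequence with a kept cell of another library, and no barcode was shared between members.

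The last condition of the rule removed the most cells. Of 2241 inhibitory cells with 3 UMIs of the 4 chosen genes, 1719 carried Neurod1, Neurod6, Nanos1, Nhlh2 or Scx, and 545 of these carried a single UMI of them. Nhlh2 was present in 1147 and Neurod1 in 1144 of the 2241 cells. The libraries lost unequal parts. Any of the barred genes was carried by 827 of 1186 and 88 of 96 such cells in control replicates 1 and 2. In En1/2 CKO replicates 1 and 2 it was 438 of 491 and 366 of 468. Cells removed by any of the exclusions had a median of 1804 UMIs and members a median of 1233, so the rule kept shallower cells. The gap was smallest in control replicate 1, at 1511 and 1285 UMIs. It was 2615 and 1312 UMIs in control replicate 2. In En1/2 CKO replicates 1 and 2 it was 3898 and 1153 UMIs and 3485.5 and 987 UMIs.

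The 4 chosen genes were not carried evenly by the members. Because their counts selected the cells, the following values describe the members and were not tested. Sez6 stood at 1160, 120, 974 and 1094 CPM in control replicates 1 and 2 and En1/2 CKO replicates 1 and 2. Igfbp5 stood at 1558, 1502, 1303 and 809 CPM in the same order. Sez6 was thus low in control replicate 2, where it rests on 2 UMIs in 8 cells, and Igfbp5 was lowest in En1/2 CKO replicate 2. Glra2 stood at 322, 481, 452 and 555 CPM, with overlapping genotypes. Grin2b stood at 357, 421, 206 and 316 CPM, with 7 UMIs in control replicate 2, so that both mutants lay below both controls. Without the 10 cells rich in markers of other types (described below), Grin2b stood at 356, 682, 240 and 456 CPM and the genotypes overlapped.

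Most members combined at least 2 of the 4 genes. All 4 were detected in 29 members, 3 in 144, 2 in 201 and a single one in 49. Sez6 and Igfbp5 occurred together in 238 members, Sez6 without Igfbp5 in 107, Igfbp5 without Sez6 in 71 and neither in 7. Of the UMIs of the 4 genes, Igfbp5 made up 43% and Sez6 34.4%. Igfbp5 was detected in 80.5% and 100% of control members and in 59.5% and 50% of mutant members. For Sez6 the shares were 82.3%, 25%, 76.2% and 87.5% in the order of libraries used above. These detection rates cover cells of unlike depth. After thinning every cell to 1000 UMIs, Igfbp5 was found in 69.7%, 80%, 44% and 43.2% of the members deep enough for it, with 5 such cells in control replicate 2. Thinned Sez6 shares were 68.5%, 0%, 56% and 64.9%.

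**Figure D1:**
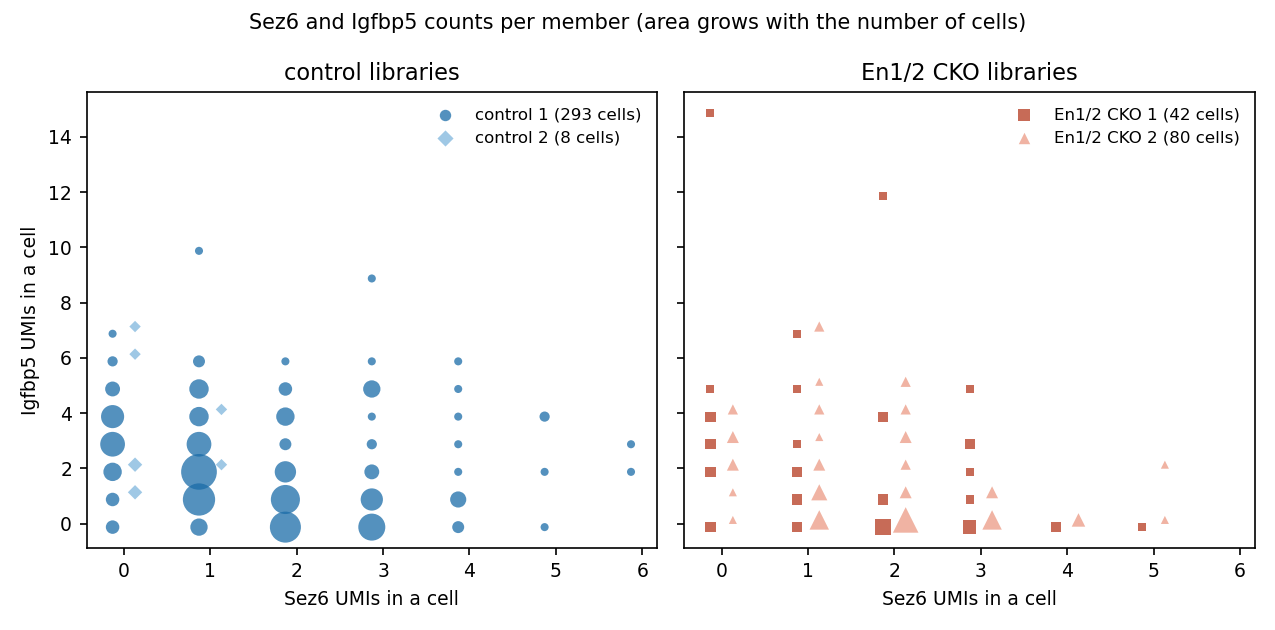
Each symbol gives Sez6 UMIs (horizontal axis) and Igfbp5 UMIs (vertical axis) of member cells, with an area that grows with the number of cells and the 2 libraries of a genotype slightly offset. Cells lie along both axes as well as between them, with 107 members that carry Sez6 without Igfbp5 and 71 that carry Igfbp5 without Sez6.

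The inhibitory genes are part of the rule, so their presence in members was fixed by the choice of cells and is given as a description. Slc32a1, the vesicular transporter, was detected in 332 of 423 members (78.5%). The 420 microglia marker cells were chosen to have no UMI of these inhibitory genes, so its absence from them was fixed as well. Slc32a1 stood at 967, 361, 644 and 747 CPM in the 4 libraries. It was the sole inhibitory gene of the rule in 186 members, while 208 carried Gad1 or Gad2 and 41 carried the glycine transporter Slc6a5, of which 12 also had Gad1 or Gad2. Slc6a5 stood at 63.5, 0, 68.6 and 108 CPM, so GABA and glycine genes were both present in 3 libraries and no Slc6a5 UMI was found in the 8 members of control replicate 2.

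The label was checked against markers of other cells. The rule allowed 1 UMI of Purkinje genes. Foxp2 stood at 115, 60.1, 82.3 and 46.2 CPM, Calb1 at 2.44, 0, 13.7 and 0 CPM, and Skor2 had no UMI. The whole list of 11 Purkinje markers, 3 of them limited by the rule, summed to 1072, 601, 836 and 547 CPM. Ebf1 made up most of it, at 691, 481, 480 and 339 CPM. At least 3 UMIs of the list were carried by 49, 1, 8 and 8 members. The transporters of glutamatergic neurons, Slc17a6 and Slc17a7, and the nuclear gene Tbr1 were at 0 in all libraries. The whole list of 11 glutamatergic markers, 2 of them barred by the rule, summed to 127, 240, 343 and 262 CPM. Most of this came from Meis2, at 48.9, 180, 261 and 185 CPM, and Pax6, at 53.7, 60.1, 27.4 and 53.9 CPM, which other neurons and progenitors also express. Otx2, Gata2, Gata3 and Tal1, which mark midbrain inhibitory neurons among others, were at 0 in 3 libraries, and the list summed to 53.9 CPM in En1/2 CKO replicate 2, where 1 cell rich in choroid plexus genes held 6 of its 7 UMIs. Of 8 microglia markers, the summed level was 34.2 and 0 CPM in the control and at 0 and 23.1 CPM in the mutant libraries. Pax2, the marker of interneuron precursors and no part of the rule, was detected in 40.3%, 37.5%, 38.1% and 36.3% of members, against 13.1% of all microglia marker cells. Without control replicate 2, Pax2 averaged 345 CPM in members, 349 CPM in Sst/Cartpt cells and 308 CPM in Purkinje marker cells (both classes are defined below). Its level therefore did not set members apart from these neurons.

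**Figure D2:**
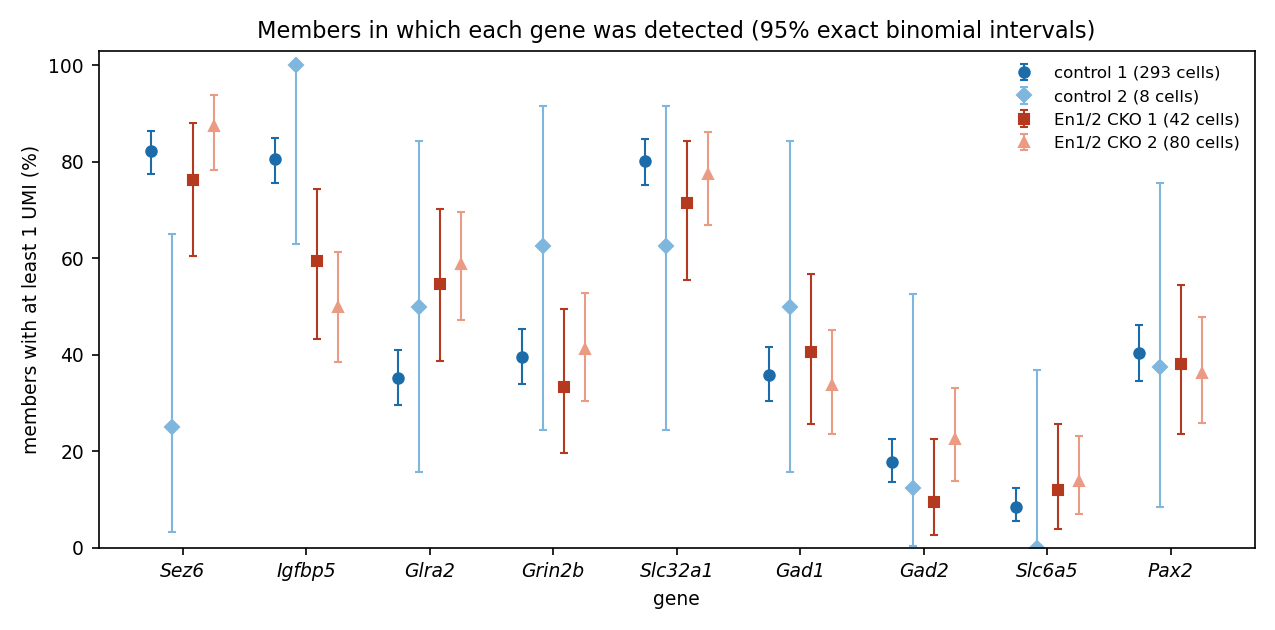
The share of members with at least 1 UMI (vertical axis, percent) is given for 9 genes and 4 libraries, with exact Clopper-Pearson 95% intervals that cover counting error only. Slc32a1 was found in 62.5% to 80.2% of members and Pax2 in 36.3% to 40.3%, while the intervals of control replicate 2 are wide because it has 8 members.

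A few members carried many UMIs of other cell types. Cells with at least 50 UMIs of radial progenitor, choroid plexus or erythroid markers numbered 10, with 1, 1, 4 and 4 in the libraries in the order used above. These 10 cells held 0.38% and 47.1% of the member UMIs in controls and 25.7% and 35.8% in mutants. One cell of En1/2 CKO replicate 2 had 4838 choroid plexus UMIs of 13683, and a cell of En1/2 CKO replicate 1 had 1126 erythroid UMIs of 2298. Of the 10, 5 were called doublets. Summed radial progenitor markers (7 genes) stood at 2359 and 12798 CPM in the control and at 5951 and 5070 CPM in the mutant libraries, and without the 10 cells at 2356, 2159, 2270 and 3744 CPM. Values of leading genotype genes are therefore also given without these cells, while the gene lists are given with all members.

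The 147 members with a sum of exactly 3 and the 290 cells with a sum of 2 that met all other conditions are described here without a test. Over all libraries pooled, the netrin receptor gene Unc5c stood at 532 CPM just inside and 472 CPM just outside the threshold. The transcription factor gene Ebf1 stood at 875 and 856 CPM, and Slc32a1 at 818 and 753 CPM.

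Members were next set beside 572 inhibitory cells that had Pax2, met the exclusions and lay below the threshold (386, 4, 47 and 135 cells per library), here called Pax2-positive cells. The members carried more of several synaptic and cytoskeletal genes, and less of several transcription factor genes and of the guidance genes Robo3 and Dcc. The contrast is that of the rule, so values are a description without a test, and Pax2 itself chose the compared cells. Control replicate 2 had 4 compared cells, and comparisons are given for the other 3 libraries, in the order control replicate 1, En1/2 CKO replicate 1 and En1/2 CKO replicate 2. Of 3903 genes with at least 100 CPM summed over both classes, members were higher in all 3 libraries for 16.5% and lower in all 3 for 15.1%, which is the background for the counts below.

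Among genes of inhibitory transmission outside the rule, Abat, which degrades GABA, averaged 133 CPM in members and 159 CPM in Pax2-positive cells and was lower in members in all 3 libraries, and Slc38a1, a glutamine transporter, averaged 430 and 425 CPM. Gabbr1, a subunit of the metabotropic GABA receptor, averaged 268 CPM in members and 202 CPM in Pax2-positive cells and was higher in each library.

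Among glutamate receptor genes, 2 of 5 were higher in members in all 3 libraries and none was lower in all 3. Gria2, an AMPA receptor subunit, stood at 405, 384 and 447 CPM in members and 247, 351 and 289 CPM in Pax2-positive cells. Of 16 synaptic genes 5 were higher and none lower in all 3 libraries. Nrxn3, a presynaptic adhesion gene, averaged 1914 and 1988 CPM, so the most counted synaptic gene of the list differed little, while Nrxn2 averaged 251 and 191 CPM.

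A list of Sez6 relatives and CUB domain genes held 7 genes that the rule did not use. The 3 with at least 100 CPM summed over both classes were higher in members in all 3 libraries. Neto2, below that level, was not higher in En1/2 CKO replicate 2 (15.4 CPM in members and 16.3 CPM in Pax2-positive cells). Sez6l2 stood at 366, 247 and 301 CPM in members and averaged 176 CPM in Pax2-positive cells, and Sez6l averaged 74.9 and 33.7 CPM. Cytoskeletal genes of neurons were higher in 8 of 17 and lower in 1 of 17. Map1b, a microtubule-associated protein gene, averaged 1403 and 1185 CPM and was higher in each library, while the neuronal tubulin gene Tubb3 averaged 2892 and 2969 CPM.

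Guidance genes divided. Unc5c, a receptor for repulsive netrin signals, stood at 764, 644 and 524 CPM in members and averaged 403 CPM in Pax2-positive cells. Robo3, known from crossing commissural axons, stood at 564, 425 and 370 CPM in members against an average of 836 CPM, and the attractive netrin receptor gene Dcc averaged 288 against 676 CPM. Both were lower in members in each library. In the whole list 4 of 15 genes were higher and 5 of 15 lower in all 3 libraries.

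Transcription factor genes of 2 lists were counted. Of 14 interneuron lineage factors, 1 was higher and 3 were lower in members in all 3 libraries (7.14% and 21.4%), with a median log2 ratio of -0.06. Of 16 factors in a list of neuronal maturation, 2 were higher and 7 lower in members in all 3 libraries, with a median log2 ratio of -0.29 against -0.001 over all genes. Ebf1, known from early differentiating neurons, stood at 691, 480 and 339 CPM in members and averaged 1434 CPM in Pax2-positive cells. Nfib averaged 1048 and 1676 CPM. In contrast Tfap2b, a factor of cerebellar GABAergic neurons, averaged 454 and 457 CPM, and Zic1 645 and 750 CPM.

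Igfbpl1, a relative of Igfbp5 known from young neurons, stood at 5290, 2112 and 3360 CPM in members and averaged 5483 CPM in Pax2-positive cells. Pnoc, the precursor of the neuropeptide nociceptin, stood at 435, 261 and 524 CPM in members and averaged 201 CPM. Of the survival list 5 of 10 genes were higher and 2 of 10 lower in all 3 libraries. Ntrk2, the receptor of brain-derived neurotrophic factor, averaged 264 and 119 CPM, and Bcl2, which protects against apoptosis, averaged 129 and 47.6 CPM.

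**Figure D3:**
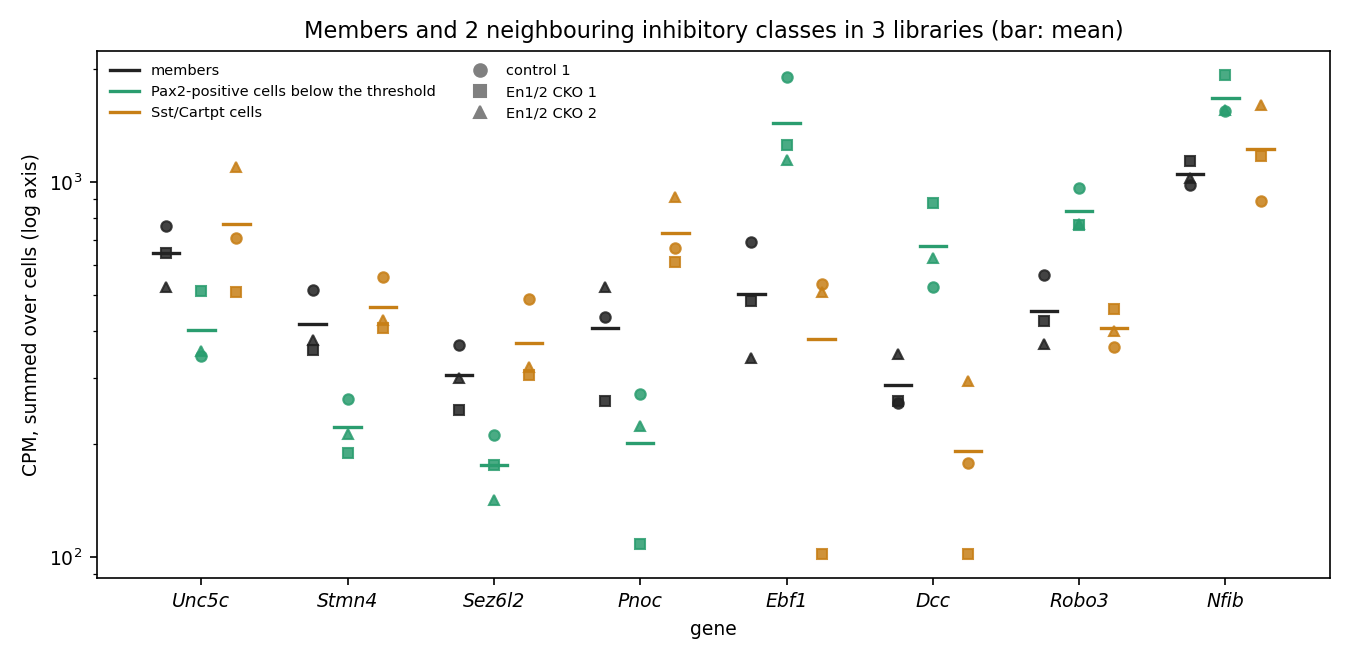
CPM on a log axis are given for 8 genes in members, Pax2-positive cells below the threshold and Sst/Cartpt cells of 3 libraries, with a bar at the mean. The genes were picked after their values were seen, and in Unc5c, Stmn4, Sez6l2 and Pnoc members lie above Pax2-positive cells in each library, whereas in Ebf1, Dcc, Robo3 and Nfib they lie below.

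The 20 genes with the highest ratio to Pax2-positive cells included Cdh7, Itga6, Gpr162, Bcl2, Dpf3, Snhg11, Imp3, Gprasp2, Cd47, Sp5, Atp2b2, Hnrnph2, Cbarp, Pcdh9, Sgcd, Gpm6a, Ptprk, Cdk5 and Pde2a. Of the 20, 18 were at 0 in the 4 compared cells of control replicate 2, which raises the ratio. Over the other 3 libraries the ratio (10 CPM added) lay between 1.40 and 3.58, and 19 of the 20 were higher in members in each, the exception being Ptprk in En1/2 CKO replicate 1 (68.6 and 81 CPM). Cdh7, a cadherin, stood at 63.5, 54.8 and 69.3 CPM in members and 25.3, 0 and 5.45 CPM in Pax2-positive cells. Gpm6a, a neuronal membrane glycoprotein gene, stood at 357, 329 and 470 CPM against 190, 229 and 185 CPM.

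Inhibitory cells with at least 2 UMIs of Sst and Cartpt (124 cells) and cells with at least 3 UMIs of the Purkinje genes Foxp2, Calb1 and Skor2 (292 cells) were then set beside the members. Unc5c averaged 644 CPM in members, 771 CPM in Sst/Cartpt cells and 277 CPM in Purkinje marker cells. Of the 20 genes above, 17 averaged higher in Sst/Cartpt cells than in Pax2-positive cells, and 9 were at or above members. Pnoc averaged 406 CPM in members and 728 CPM in Sst/Cartpt cells, and Sez6l2 305 and 371 CPM. These genes were thus not particular to the members. Bcl2 was lower in Sst/Cartpt cells, at 129 and 29.6 CPM in the same order. The latter rests on few UMIs, at 35.5 CPM in control replicate 1 and 0 and 53.4 CPM in En1/2 CKO replicates 1 and 2. In these cells 3 UMIs correspond to 26.6, 153 and 80.1 CPM.

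Members with at least 3 UMIs of Sez6 and none of Igfbp5 (43 cells) were then set beside members with at least 3 UMIs of Igfbp5 and none of Sez6 (48 cells), leaving out the 10 cells rich in other markers. These groups were formed from the chosen genes, the genes named were picked after their values were seen, and counts are pooled over libraries with exact Poisson 95% intervals, which cover counting error only. Pnoc stood at 686 CPM (483 to 945) in the Sez6 cells and 204 CPM (109 to 349) in the Igfbp5 cells. These rest on 37 UMIs in 12 of 43 cells and 13 UMIs in 8 of 48 cells, and the intervals do not cover the spread between cells. Syt1, the calcium sensor of vesicle release, stood at 167 CPM (76.3 to 317) and 423 CPM (279 to 616). Gria2 stood at 334 CPM (198 to 527) and 643 CPM (461 to 872). The intervals overlapped for Syt1 and for Gria2.

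Sparc, which encodes a secreted matrix protein, and its relative Sparcl1 lay on the Igfbp5 side. Sparc stood at 55.6 CPM (11.5 to 162) in the Sez6 cells and 423 CPM (279 to 616) in the Igfbp5 cells, where 6 of 48 cells carried it. Sparcl1 stood at 37.1 CPM (4.49 to 134) and 376 CPM (241 to 560), with 8 of 48 Igfbp5 cells carrying it. For Slc32a1 the intervals overlapped too, at 1056 CPM (800 to 1368) and 894 CPM (677 to 1158). The libraries contributed unequally, with 22, 0, 7 and 14 Sez6 cells and 36, 2, 5 and 5 Igfbp5 cells.

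The share of members among inhibitory cells was compared between genotypes. It was 6.67% (293 of 4395 cells, exact Clopper-Pearson 95% interval 5.95 to 7.44%) in control replicate 1 and 2.95% (8 of 271, 1.28 to 5.73%) in control replicate 2. In En1/2 CKO replicates 1 and 2 it was 2.74% (42 of 1532, 1.98 to 3.69%) and 3.66% (80 of 2184, 2.91 to 4.54%). Control replicate 1 stood above the other 3 libraries, and control replicate 2 lay between the mutants. This order holds for the rule as set. Its last condition alone removed 665 and 70 cells in control replicates 1 and 2 and 279 and 245 in En1/2 CKO replicates 1 and 2. In each library these outnumbered the members, and their part in the order of the shares was not tested. The means were 4.81% ± 2.63 in controls and 3.20% ± 0.65 in mutants (SD, n = 2 libraries each), a difference of -1.61 percentage points with p = 0.667 in a two-sided exact permutation test, whose smallest p is 0.333. Without control replicate 1 the difference was 0.25 points, so its sign rests on that library.

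The shares were also counted at a common depth, among cells deep enough for it. With inhibitory cells of at least 1000 UMIs thinned to 1000, among 3060, 142, 804 and 950 cells, the shares were 6.73%, 2.82%, 2.74% and 3.05%. At 2000 UMIs, among 453, 160, 616 and 516 cells, they were 6.40%, 1.25%, 0.649% and 0.775%. Both mutants then lay below both controls, with 2 members in control replicate 2 and 4 in each mutant and with p = 0.333 in the exact permutation test. The interval of control replicate 2 (0.152 to 4.44%) covered both mutant values. Only the deeper cells enter at 2000 UMIs, so depth and the choice of cells cannot be told apart. With cells of at least 1000 genes and no more than 5% mitochondrial UMIs, the shares were 5.28% and 2.22% in controls and 0.738% and 0.54% in mutants, from 54, 2, 6 and 4 members. The difference was then -3.11 points, against -1.61 points as counted (p = 0.333, exact permutation test). Inhibitory cells had a median depth of 1252 and 2479 UMIs in controls and 2316 and 1224 UMIs in mutants.

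**Figure D4:**
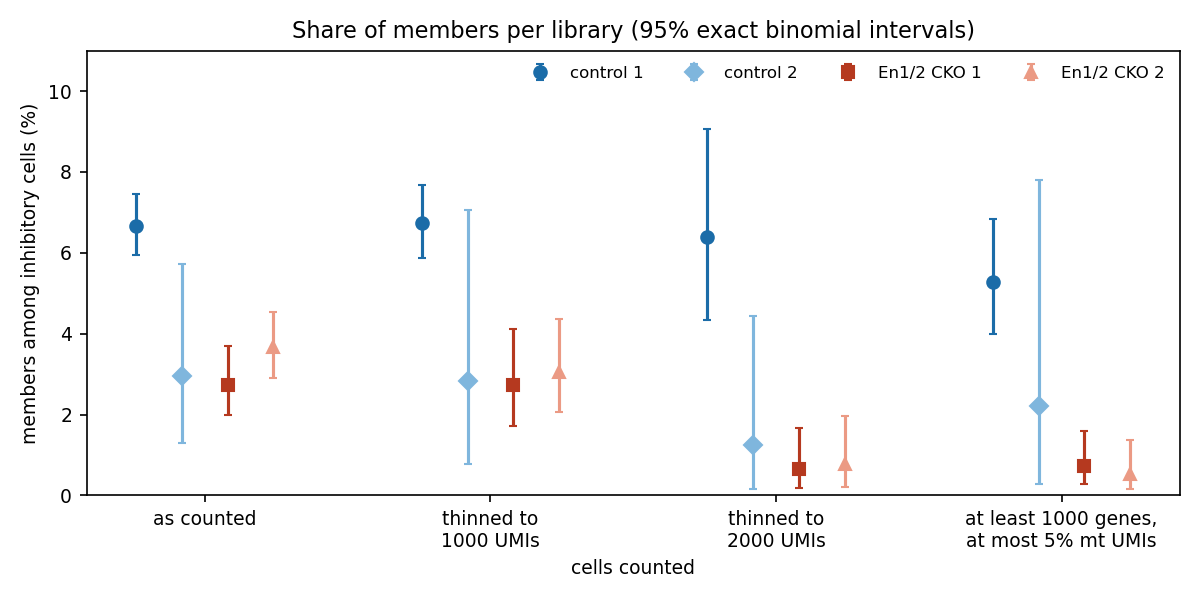
The share of members among inhibitory cells (vertical axis, percent) is given per library as counted, after thinning to 1000 or 2000 UMIs and under a stricter cell filter, with exact 95% intervals. Control replicate 1 lies at 5.28% or above in each setting shown, and control replicate 2 lies between the mutants as counted and above both after thinning to 2000 UMIs and under the stricter filter, with wide intervals.

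The targeted genes did not separate the genotypes in the members. En1 stood at 120 and 180 CPM in the control and at 219 and 84.8 CPM in the mutant libraries, and its log2 change from control to mutant was 0.15 (SE, the standard error, 0.51, edgeR adjusted p = 0.997). Without the 10 cells rich in other markers En1 stood at 120, 341, 295 and 120 CPM, with a log2 value of 0.54 (SE 0.53). En2 stood at 97.7 and 60.1 CPM in the control and at 110 and 46.2 CPM in the mutant libraries and was too sparse for the fit. In the library labelled En1/2 CKO replicate 1, En2 rested on 8 UMIs in 4 of 42 cells, and in En1/2 CKO replicate 2 on 6 UMIs in 3 of 80 cells. Of those 6 UMIs, 66.7% lay in the 10 cells, and without them En2 stood at 98.1, 114, 129 and 24 CPM. The reads come from 3' ends, and the labels do not say which part of either gene is removed, so these values do not check the deletion. TdTom transcripts stood at 342, 361, 590 and 378 CPM.

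No gene passed the test between genotypes in the members (edgeR quasi-likelihood, 2183 genes, 0 called, 0% of those tested). At an unadjusted p under 0.05, 50 genes (2.29%) were higher in mutants and 21 (0.962%) lower, 3.25% in all, and DESeq2 called 0 with 6 and 4 at that level. Libraries of the 2 genotypes did not overlap in 30.3% of genes, 16.3% with mutants higher and 14.1% with mutants lower. In simulated counts of the same size, the test found 78 of 100 genes changed 4-fold and 98 of 100 changed 16-fold. It also called 8 of 1983 unchanged genes. The simulation gave all libraries the same dispersion trend and held no single cells rich in a gene, so these rates may not hold for the members. The coefficient of variation between libraries was 0.423 in controls and 0.221 in mutants. The genes below are those with the smallest unadjusted p whose genotypes did not overlap, and none of them passed.

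Snhg11, a host gene of small nucleolar RNAs on chromosome 2 (GRCm38, 158375638 to 158386145), stood at 200 and 240 CPM in the control and at 850 and 986 CPM in the mutant libraries. The log2 change was 2.15 (SE 0.48, edgeR adjusted p = 0.378), and 2.18 (SE 0.46, adjusted p = 0.265) without the 10 cells rich in other markers. Few cells carried these counts. In En1/2 CKO replicate 1 a single cell held 42 of 62 UMIs, in En1/2 CKO replicate 2 a single cell held 49 of 128, and in control replicate 1 the highest cell held 19 of 82. Snhg11 was detected in 8.87% and 25% of control members and 23.8% and 20% of mutant members. Malat1, another nuclear RNA, stood at 98168 and 68678 CPM in the control and at 48442 and 51711 CPM in the mutant libraries, and at 98315, 110657, 55142 and 72702 CPM without the 10 cells. Its part in other values was not tested.

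Meis2, a homeobox gene, stood at 48.9 and 180 CPM in the control and at 261 and 185 CPM in the mutant libraries (log2 change 1.87, SE 0.54, edgeR adjusted p = 0.862). Without the 10 cells it stood at 49, 114, 277 and 240 CPM and the log2 change was 2.29 (SE 0.49, adjusted p = 0.265). Meis2 rested on control replicate 1, without which the log2 change was 0.41, and at a threshold of 4 it was 0.31. Gap43, a growth cone gene, stood at 125, 120, 452 and 239 CPM, and at 125, 227, 572 and 120 CPM without those cells, where the genotypes overlapped.

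For other genes high in mutants, the 10 cells held most UMIs in at least 1 mutant library. Ttr, the main secreted product of the choroid plexus, stood at 9.77, 0, 192 and 37040 CPM, and 99.9% of its UMIs in En1/2 CKO replicate 2 lay in those cells. Aldoc, an astroglial and Purkinje enzyme gene, stood at 39.1, 0, 233 and 216 CPM with all members and 39.2, 0, 55.4 and 132 CPM without them. Rcn1 stood at 63.5, 60.1, 192 and 223 CPM, and at 63.7, 114, 92.3 and 96 CPM without them, where the genotypes overlapped. The neural progenitor genes Id3 and Hes5 had 59.1% to 70.6% of their mutant UMIs in those cells. Pea15a and Gnai2 completed the named genes, with adjusted p = 0.862 for both in edgeR. Pea15a (172196728 to 172206804) lies on chromosome 1, as does the floxed gene En1 (120602418 to 120607992), at a distance.

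Of the genes lower in mutants, Slc30a3 had 0% and 5.26% of its mutant UMIs in those cells and Afdn 0% and 17.9%. Slc30a3, a vesicular zinc transporter on chromosome 5 (GRCm38, 31086106 to 31108237), stood at 447 and 300 CPM in the control and at 137 and 146 CPM in the mutant libraries, with a log2 change of -1.53 (SE 0.41, edgeR adjusted p = 0.727). Without the 10 cells it stood at 449, 568, 185 and 216 CPM and the log2 change was -1.20 (SE 0.38, adjusted p = 0.998), and without control replicate 1 it was -0.90 for Slc30a3. En2, the floxed gene, lies nearby (28165694 to 28172166), so for Slc30a3 linked DNA cannot be told apart from the mutation. Srrm4, a neuronal splicing regulator, lies much farther away on the same chromosome (116439275 to 116591817) and stood at 383 and 300 CPM in the control and at 123 and 216 CPM in the mutant libraries.

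Afdn, which encodes the junction protein afadin, stood at 691 and 240 CPM in the control and at 206 and 216 CPM in the mutant libraries (log2 change -1.42, SE 0.45, edgeR adjusted p = 0.898). Control replicate 2 had 4 UMIs of it, and without control replicate 1 the log2 change was -0.02. Ccny, 2700081O15Rik, Dnm1l, Tubb4a, Gnaq, AC149090.1 and Smpd1 made up the rest, with adjusted p between 0.862 and 0.997 in edgeR.

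**Figure D5:**
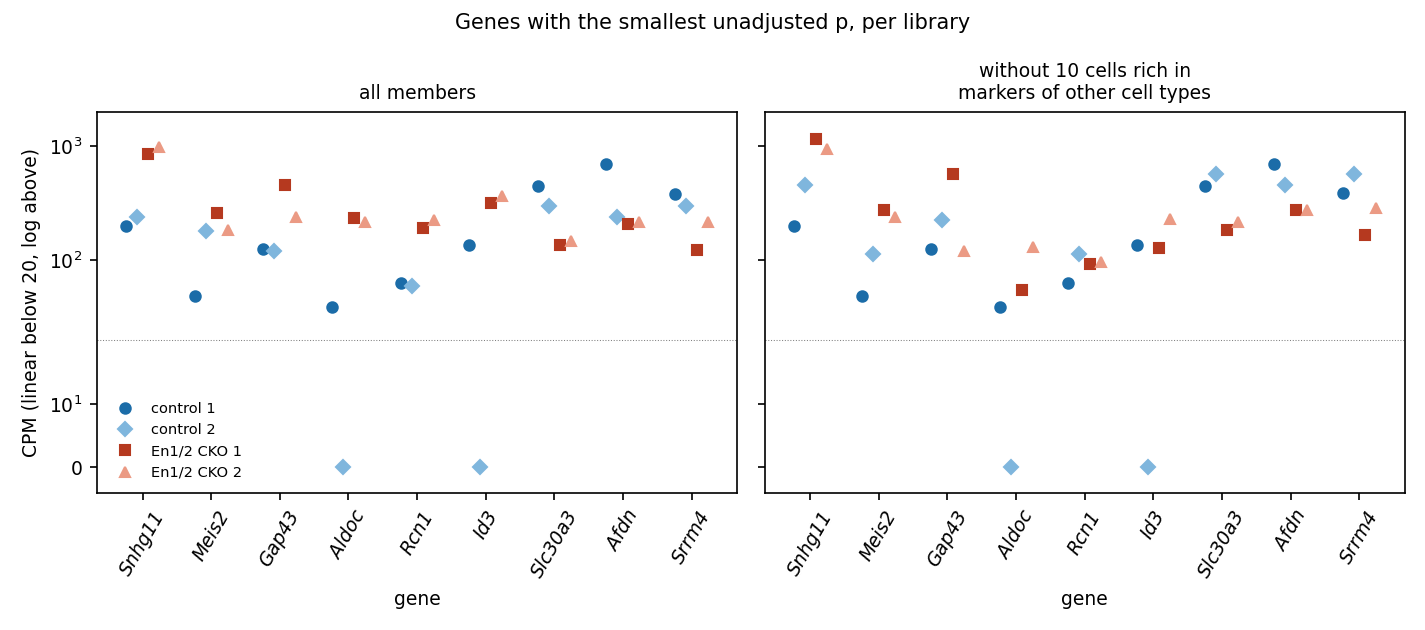
CPM per library (vertical axis, linear below 20 and logarithmic above) are given for 9 genes with all members and without the 10 cells rich in markers of other types. In Snhg11, Meis2, Aldoc, Slc30a3, Afdn and Srrm4 the genotypes stay apart without these cells, while in Gap43, Rcn1 and Id3 they overlap.

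No member of the gene lists passed the test. Of 12 interneuron transcription factors tested, 6 had fold changes above 0 and 6 below, with a median log2 value of -0.12 against 0.007 over all genes. Pax2 stood at 386 and 421 CPM in the control and at 302 and 347 CPM in the mutant libraries (log2 change -0.25, SE 0.39, edgeR adjusted p = 0.997). Its genotypes did not overlap, as in 14.1% of all genes in that direction. Of 13 maturation factors 4 had fold changes above 0 and 9 below, with a median of -0.27. Ebf1 stood at 691 and 481 CPM in the control and at 480 and 339 CPM in the mutant libraries, nearly touching.

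Synaptic genes divided 4 to 6 (median log2 fold change -0.15) and guidance genes 5 to 5 (median 0.15), counting values above 0 first. Dcx, a microtubule gene of migrating neurons, stood at 259 and 180 CPM in the control and at 343 and 324 CPM in the mutant libraries. Unc5c stood at 764 and 721 CPM in the control and at 644 and 524 CPM in the mutant libraries, with a log2 change of -0.34 (SE 0.45). Slc38a1 stood at 469 and 180 CPM in the control and at 411 and 408 CPM in the mutant libraries, and Gabbr1 at 266, 361, 261 and 277 CPM, with overlapping genotypes for both.

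In the survival list all 6 tested genes had a fold change above 0, with a median of 0.40, where 50.6% of all genes lay above 0. Bcl2 stood at 65.9 and 120 CPM in the control and at 206 and 116 CPM in the mutant libraries (log2 change 1.11, SE 0.50, edgeR adjusted p = 0.997), and its genotypes overlapped. Mcl1, a relative of Bcl2, stood at 120, 120, 123 and 131 CPM, and Bax, which promotes apoptosis, at 303, 120, 233 and 308 CPM. Ntrk2 stood at 230, 300, 247 and 316 CPM. None of these passed. Bcl2 (106538178 to 106714274) lies on chromosome 1, as does En1.

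Whether the genotype effect differed between members and Pax2-positive cells was tested by an interaction term, with both cell classes of a library joined by a block. Of 2730 genes, 0 passed (0%), with 70 (2.56%) at an unadjusted p under 0.05 and 4 and 2 in either direction at that level in DESeq2, which also called 0. The named genes were Map7d1, Rcn1, Gap43, Snhg11 and Gng10 with a higher and Ccny, Srrm4, Gnaq, Syt1 and 2700081O15Rik with a lower effect in members. Snhg11 stood at 152, 0, 351 and 256 CPM in Pax2-positive cells, and the difference of the log2 effects was 1.16 (SE 0.45, edgeR adjusted p = 0.999). Syt1 stood at 200, 300, 165 and 123 CPM in members and 78.1, 97.6, 148 and 125 CPM in Pax2-positive cells, a difference of -1.32 (SE 0.55, adjusted p = 0.999). Control replicate 2 enters this fit with 8 members and 4 Pax2-positive cells.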

How the data were processed

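Cells were sorted for tdTomato from pooled E15.5 cerebella and sequenced with 10x Genomics 3' v3.1 chemistry, per the labels' protocols. The deposited matrices hold unnormalized UMI counts for 32286 genes, made by the authors with Cell Ranger 6.1.0 on mm10, per the submitters' processing notes. Members and gene lists (26) were chosen with earlier results of these data known, and genes named outside the rule below were picked after their values were seen. Labels gave the groups.

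UMI counts of member cells were summed per library and compared between genotypes with edgeR 4.0.16 (TMM, filterByExpr, quasi-likelihood F test, two-sided, Benjamini-Hochberg threshold 0.05). The 18 rule genes were left out of testing but kept in the totals. Member totals, 16643 to 409420 UMIs, set the precision. Shares used exact Clopper-Pearson 95% intervals and exact permutation tests, and intervals and floors (3 counts) cover counting error only. Doublets were scored with Scrublet (scanpy 1.11.5). In libraries with an automatic call rate below 0.5%, top-scoring cells were marked at a rate of 0.8% per 1000 barcodes. Doublets were kept in the main result. The script was tested on simulated data. Coordinates are from GENCODE for GRCm38.

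Named in the genotype comparison were genes that averaged 20 CPM or more in either group and did not overlap between genotypes, up to 10 per direction by p (5 for the interaction). From lists up to 4 genes with the highest mean CPM were named, and as description 20 genes with the highest ratio to Pax2-positive cells among those with at least 50 CPM in each member library. Xist and Y-linked, mitochondrial, ribosomal and haemoglobin genes were not named by p or ratio. Other X-linked genes were kept, and the named genes Gprasp2 and Hnrnph2 lie on the X chromosome. Alternatives were RLE size factors, DESeq2 1.42.0, stricter cells (1000 genes, 5% mitochondrial), no low-count filter, removal of doublets, thinning, a threshold of 4, the replicate number as a block and each library left out. Leaving out cells with 50 UMIs of other markers was added after the data were seen. Some genes that these rules name are not reported here.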

Additional observations from a re-analysis of the deposited data

How the results depend on the processing

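The count of genes called between genotypes in members was 0 in the main fit and remained 0 with RLE size factors, DESeq2, doublets left out, thinning to 1000 UMIs, a threshold of 4 and without the cells rich in other markers. It was 11 with no low-count filter, 73 under the stricter cell filter (1000 genes, 5% mitochondrial), where control replicate 2 had 2 members and the mutants 6 and 4, and 3 with the replicate block. It lay between 1 and 63 when a library was left out, with 43 without control replicate 1, 63 without control replicate 2, 3 without En1/2 CKO replicate 1 and 1 without En1/2 CKO replicate 2. The remaining library of the group was then assumed to vary like the other group, and the controls varied more than the mutants. Deviations from the group means correlated at -0.06 within and 0.06 across replicate numbers. With 2 libraries per group these are 1 value with opposite signs, so they cannot decide whether the numbers pair the samples. The interaction called 0 genes, but 1 with no low-count filter and between 0 and 4 when a library was left out, 1 without control replicate 1 and 4 without En1/2 CKO replicate 2. The difference in share lay between -3.46 points without control replicate 2 and 0.25 points without control replicate 1, where it reversed, and kept its sign in the other settings. Of 216 values of 21 named genes under alternatives, 183 kept direction and side of the threshold, 31 passed, 17 of them without control replicate 2, and 2 reversed, both En1, with log2 fold changes of -0.22 without control replicate 1 and -0.52 without En1/2 CKO replicate 1, where the highest value with a library left out was 0.69. The cause of these changes was not tested.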
